A study of Mus musculus with 9 samples.

Results

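Thbs4, Ecel1, Adamts18, S100a6, C1ql3, Ass1, Anxa2 and Pter are 8 genes, of 32287 in the matrix, that led the quiescent cell state of the ventricular-subventricular zone (vSVZ) richest in the lineage tracer eYFP. They were chosen by their UMI levels in that cluster against the remaining cells and by their detection beside EYFP, so their levels in it and their co-detection with EYFP are a description and carry no test. Changes of the same genes with age and with loss of interferon receptors were not used for the choice and were tested over mice. Tests over all vSVZ quiescent cells are still tied to the choice, since those cells include that cluster. Its share among them was lower in old mice.

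Quiescent neural stem cells of the vSVZ line the lateral ventricle, share most of their transcriptome with parenchymal astrocytes and can activate, divide and give rise to transit-amplifying progenitors (TAPs) and neuroblasts that migrate to the olfactory bulb. Products of the 8 genes act at different sites. Thbs4 encodes a secreted matricellular thrombospondin, C1ql3 a secreted C1q-domain ligand of the adhesion receptor Adgrb3, and Adamts18 a secreted metalloprotease. Ecel1 encodes a membrane peptidase related to the endothelin-converting enzymes. S100a6 encodes a small calcium-binding protein and Anxa2 a calcium-dependent membrane-binding annexin. Ass1 encodes argininosuccinate synthase, which makes the precursor of arginine, and Pter a phosphotriesterase-related hydrolase.

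The mice were TiCY animals, in which Nr2e1 (Tlx) sequences drive a tamoxifen-inducible Cre that switches on eYFP in stem cells and, permanently, in their progeny. The methods also list a modified Fas allele in the strain of both genotypes. WT young mice were 16 weeks old, received tamoxifen at 10 weeks and were traced for 6 weeks, and WT old mice were 80 weeks old, received it at 71 weeks and were traced for 9 weeks. IFNAGR KO mice lacked the type I and type II interferon receptors: KO young mice were 16 weeks old with tamoxifen at 7 weeks, KO old mice were 92 to 105 weeks old with tamoxifen at 85 and 98 weeks, and both were traced for 9 weeks. For KO old mice the ages at tamoxifen and the tracing time given add up to more than the ages given, and the values are printed as the labels state them. Each of the 4 conditions was 1 droplet reaction that pooled 2 mice, whose cells carried hashtags for mouse and tissue (vSVZ, or the rest of the brain, RoB, made up of olfactory bulb, rostral migratory stream and striatum). Since a condition was a single reaction, condition and reaction cannot be told apart, and p-values measure only the spread between the mice of a reaction. Sorting took eYFP+ and GLAST+ cells from the vSVZ but eYFP+ and eYFP-/PSANCAM low cells from RoB, so shares of cells depend on the sort and tissue goes with the gate.

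The matrix held 844265 barcodes, of which 18055 were retained as single cells (2396 to 6461 per library), at a median of 5026 to 7393 UMIs per cell. Between 11 and 18 retained barcodes of a library also occurred in another library. Clustering, which left out the 8 genes, the transgenes and interferon-response genes, gave 30 clusters. The eYFP-rich quiescent cluster held 1013 cells, 359 of WT young, 83 of WT old, 431 of KO young and 140 of KO old mice, and 48.8% of them had an EYFP UMI. The other 5 quiescent clusters held 4766 cells, and at most 7.51% of the cells of any of them had an EYFP UMI. Quiescent, here and below, names a class set by markers, and that class includes astrocytes. Comparisons with the other quiescent clusters, and tests over the whole class, are therefore not between stem cells alone. With the 8 genes left out of clustering, all of them were among the 10 leading genes of the cluster, together with Sfrp1 and Gfap. They had been chosen as leaders of this state in the same data, so this is no independent check.

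The label of a quiescent stem cell state was checked against markers. The summed level of 10 quiescent markers was 16695 to 22162 CPM (UMIs of a gene per 1000000 UMIs of a cell group) in the eYFP-rich cluster over the 4 libraries, against 26968 to 28843 in the other quiescent clusters and 2324 to 6802 in activated NSC-like cells. Mki67, a proliferation gene, was at most 5.16 CPM in the cluster. Aqp4, a water channel of astrocytes, was 109 to 167 against 740 to 917. Of other cell types, the 8 microglial markers summed to at most 6.41 CPM and the 7 endothelial markers to at most 3.81, with Kdr, Cdh5 and Ly6c1 at 0, whereas the 7 ependymal markers summed to 229 to 307, against 119 to 140 in the other quiescent clusters, with none of them at 0. The 5 choroid plexus markers ran from 0.952 to 82.4 over the libraries, with Kcne2 and Kl at 0. A small unnamed cluster of 29 cells led by the ciliary genes Tmem212 and Ccdc153 held 821 CPM of Anxa2 and 1235 of S100a6; the part of such cells in the levels below was not tested.

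On GRCm38, Thbs4 (ENSMUSG00000021702.7) lies on chromosome 13 at 92751590 to 92794818 on the minus strand, Ecel1 (ENSMUSG00000026247.13) on chromosome 1 at 87147655 to 87156521, minus, and Adamts18 (ENSMUSG00000053399.9) on chromosome 8 at 113697126 to 113848738, minus. S100a6 (ENSMUSG00000001025.8) lies on chromosome 3 at 90612882 to 90624181, plus, Ass1 (ENSMUSG00000076441.9) on chromosome 2 at 31470207 to 31520672, plus, and Anxa2 (ENSMUSG00000032231.14) on chromosome 9 at 69453620 to 69491795, plus. Pter (ENSMUSG00000026730.12; chromosome 2, 12924041 to 13003455, plus) and C1ql3 (ENSMUSG00000049630.6; chromosome 2, 13003457 to 13011806, minus) meet tail to tail with 1 base between their ends. The droplet chemistry reads 3′ ends and the use of strand in counting is not given in the sources used here, so reads of the 2 genes near that point could have been assigned to either.

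Promoter windows of 300 bases (250 before and 50 after the RefSeq start, GRCm38.p6) were found for all 8 genes. The GC box recognised by SP1, GGGCGG on either strand, was in the windows of 6 genes (not of Ecel1 or S100a6) and in 35.7% of all 32851 windows. The box nearest the start of each gene is shown, since it was the only one of 5 motifs searched that more than 1 of the genes shared. Sequences run 5′ to 3′ along the gene's strand and capitals mark the GC box or its reverse complement.
Thbs4, chr13:92794846-92794869, minus: ccgccccccGGGCGGctggaccat
Ass1, chr2:31470198-31470221, plus: cgggcccgaGGGCGGggcctttct
Pter, chr2:12923959-12923982, plus: agggtcagtGGGCGGggaaaaggc
Adamts18, chr8:113848908-113848931, minus: ccggcctccCCGCCCcctctgttc
C1ql3, chr2:13010945-13010968, minus: aagaggtccCCGCCCaaccttcaa
Anxa2, chr9:69453650-69453673, plus: gggaggatgGGGCGGgtataaaag
The window of Anxa2 also held a TATA box (TATAAA, visible after its GC box and present in 13.6% of all windows), and that of Pter held the E-box CAGCTG, found in 16.3% of all windows. The sequence TTGGCA, bound by NFI factors (14.1% of windows) and the core of the interferon-stimulated response element (3.44% of windows) matched in 0 of the 8 windows on either strand.

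Levels by cell group are given with the range over the 4 libraries. Of the secreted products, Thbs4 reached 420 CPM in the eYFP-rich cluster of WT young, 394 of WT old, 451 of KO young and 252 of KO old mice. In the other quiescent clusters it was 24.3, 24.99, 38.2 and 21.2 in the same order, and activated NSC-like cells held 9.33 to 24.2. KO old was the lowest library in the cluster, and values by mouse are given with the change with age. C1ql3 was 195, 124, 197 and 197 CPM in the cluster and 31.9 to 43.7 in the other quiescent clusters. Oligodendrocyte precursor-like (OPC-like) cells, which numbered 20 or more in KO old mice only, held 178 CPM of C1ql3 there. Their 82 cells pooled over libraries held 248.8 CPM (Poisson interval 216 to 286), above the 189.98 (179.6 to 201) of the pooled cluster. Adamts18 was 128, 72.3, 173 and 108 CPM in the cluster, and 2.88 to 7.55 in the other quiescent clusters.

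Ecel1 was nearly absent from the other quiescent clusters. It reached 169 CPM in the eYFP-rich cluster of WT young, 293 of WT old, 229 of KO young and 211 of KO old mice, whereas those clusters held 0.216 to 1.49, from 2 to 19 UMIs per library. Activated NSC-like cells were second, with 34.8 to 51.6 CPM. Within that class the cluster with Nptx2 and Egfr among its leading genes held 77.9 and the cluster led by replication genes 13.1. Adamts18 (27.9 against 2.58), Thbs4 (29.5 against 7.73) and S100a6 (281 against 36.2) had the same order between these clusters of activated cells.

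S100a6 and Anxa2 were also high outside the lineage. S100a6 was 1603 to 1892 CPM in the eYFP-rich cluster, 362 to 441 in olfactory ensheathing glia-like cells and 211 to 235 in the other quiescent clusters. In the cluster Anxa2 was 129 CPM in young and 77.5 in old WT mice, and 109 and 49.5 in KO mice, but 1.19 to 2.27 in the other quiescent clusters and 147 to 298 in endothelial-like cells. Among cell groups with at least 20 cells in a library, it was the only one of the 8 genes whose mean over libraries was highest outside the cluster. Of the metabolic enzymes, Ass1 was 403, 382, 374 and 376 CPM in the cluster, the narrowest relative range of the 8 genes, and 92.4 to 115 in the other quiescent clusters. Pter was 128, 86.1, 121 and 104 in the cluster, 17.5 to 19.1 in the other quiescent clusters and 25.4 to 46.3 in oligodendrocyte-like cells. Among the same groups, 29 of 32 pairs of gene and library were highest in the eYFP-rich cluster.

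**Figure D1:**
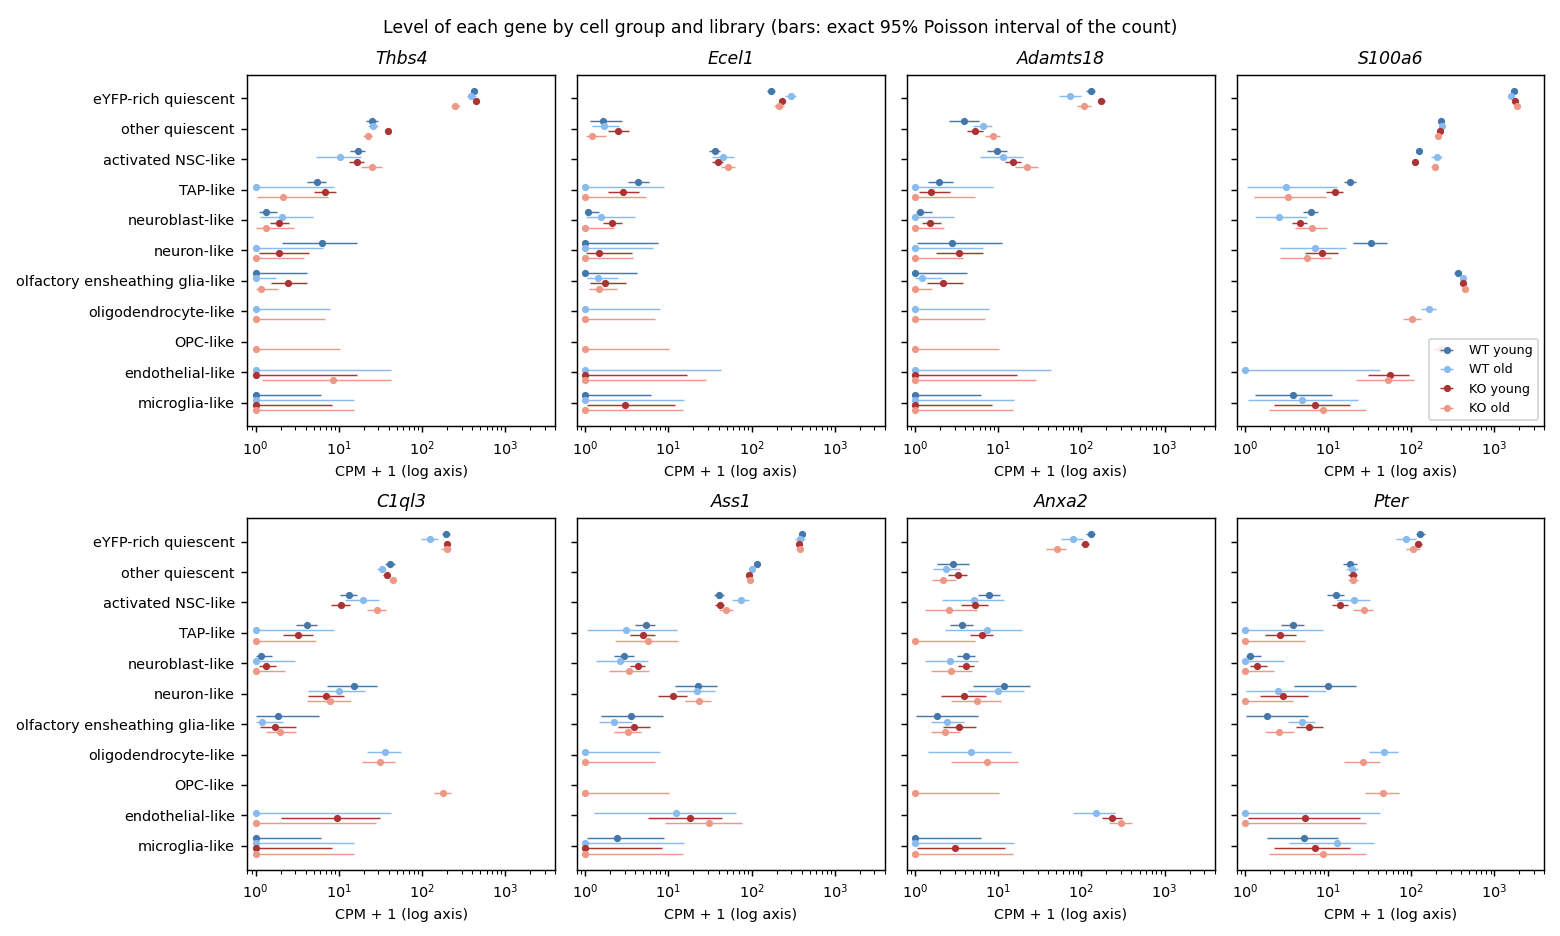
Level of each gene (x axis, CPM plus 1, log scale) in 11 named cell groups (y axis) and 4 libraries (colours), with exact 95% Poisson intervals that cover counting error only. Points are absent where a library had under 20 cells of a group; the eYFP-rich row is highest for all genes but Anxa2, which is highest in endothelial-like cells, while C1ql3 in OPC-like cells of KO old mice (178) lies near its level in the cluster (197).

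Levels also differed among the other quiescent clusters. The largest, led by Crym and Cxcl14 with 2902 cells, held 36.5 CPM of Thbs4, 56.8 of C1ql3 and 119 of Ass1, whereas a cluster of 549 cells led by Igfbp2 and Islr, of which 12.3% of hashtagged cells came from the vSVZ, held 4.51 of Thbs4, 4.51 of C1ql3 and 57.0 of Ass1. Ass1 did not follow the other genes everywhere, since 301 CPM were counted in a cluster of 144 cells with 0.952% vSVZ hashtags that held 7.15 of Thbs4.

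The family of each gene was compared over the same cells. Thbs4 was the only thrombospondin at a substantial level in the cluster: Thbs3 was 5.16 to 14.7 CPM, Thbs1 and Thbs2 were at most 2.14, and Comp was listed at 0 in each library. Of the peptidases related to Ecel1, Ece1 went the other way, with 21.97 to 37.9 CPM in the cluster and 84.3 to 95.8 in the other quiescent clusters. C1ql1 was 13.3 to 29.3 in the cluster, and Adgrb3, the receptor of C1q-like ligands, was 11.8 to 22.4 against 42.1 to 48.9. Among S100 genes, S100a4 (135 to 211 against 22.4 to 30.2) and S100a11 (22.9 to 42.3 against 2.48 to 5.71) were higher in the cluster, and S100b, an astrocyte gene, was lower (2.68 to 11.4 against 225 to 250.1). Asl, which acts after Ass1 in arginine synthesis, was 19.99 to 41.3 against 13.04 to 15.4.

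Across 38 points of cell group and library, the 10 genes most like the mean log2 profile of the 8 genes, among 10062 genes, were Dio3os (Pearson r = 0.939), Pawr (0.910), Ccdc170, S100a4, Ccdc74a, A930005H10Rik, Lrriq1, 2810459M11Rik, Etfbkmt and Gm973 (0.868). EYFP itself had r = 0.099, since TAP-like cells held 528 to 892 CPM of EYFP and activated NSC-like cells 231 to 687, above the 18.9 to 266 of the eYFP-rich cluster. These points share libraries and cell groups and r is given as a description. The profile of Anxa2 had the lowest r of the 8 genes (0.442) and that of Thbs4 the highest (0.937).

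Single cells of the cluster held several of the genes at once. The median was 5 of the 8 genes with a UMI per cell, and 72.4% of the cells had 4 or more, against a median of 1 and 4.80% in the other quiescent clusters. When every cell was thinned to 1000 UMIs, 63.5% and 4.74% of cells held 2 or more. In neuroblast-like cells 94.9% of cells held none. These cells were among the remaining cells against which the genes were chosen, so this is no independent check.

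EYFP detection has a background: 4.86% of microglia-like cells, which lie outside the lineage, had an EYFP UMI (0 to 6.45% over the libraries, median depth 5249 UMIs), close to the 4.04 to 9.74% in the other quiescent clusters. EYFP+ below thus means a cell with a UMI, and outside the eYFP-rich cluster many of these cells cannot be told from background. Over all quiescent cells, those with an EYFP UMI held the genes more often. Ecel1 was detected in 30.1% of 823 EYFP+ and 3.51% of 4956 EYFP- cells, Adamts18 in 30.6% and 5.35%, Anxa2 in 26.9% and 4.16%, and Thbs4 in 46.3% and 15.8%. The median depths were 6886 and 6960 UMIs. The share was higher in EYFP+ cells for 32 of 32 pairs of gene and library, and after thinning to 1000 UMIs for 25 of 32. In WT old mice Thbs4 was found in 14% (exact binomial interval 5.82 to 26.7) of 50 EYFP+ cells and 11.8% (9.92 to 13.98) of 1022 EYFP- cells, while its summed level was 48.0 against 51.8 CPM, so no order is read there.

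In each library the share of cells with an EYFP UMI was higher in cells with 5 of the genes than in cells with none. In WT young mice it was 6.52% in cells with none of the genes, 12.9% with 2, 31.1% with 3 and 59.1% with 4. In KO young mice it was 7.29% with none, 18.2% with 3, 35.3% with 4 and 55.6% with 5. The old libraries lay below the young ones at each number of genes drawn: with 4 genes, 6.78% of 59 WT old cells and 19.2% of 78 KO old cells had an EYFP UMI. Median depth was 4346 to 6590 UMIs in cells with none of the genes and 7462 to 7886 with 4 in the libraries other than WT young, where it was 5131. It did not rise throughout. Over all libraries it was 5887 with none, 7613.5 with 2, 7454 with 3, 7011 with 4 and 6882 with 5. With 6, 7 and 8 genes it was 7576, 7898.5 and 8689. The part of depth was not tested.

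**Figure D2:**
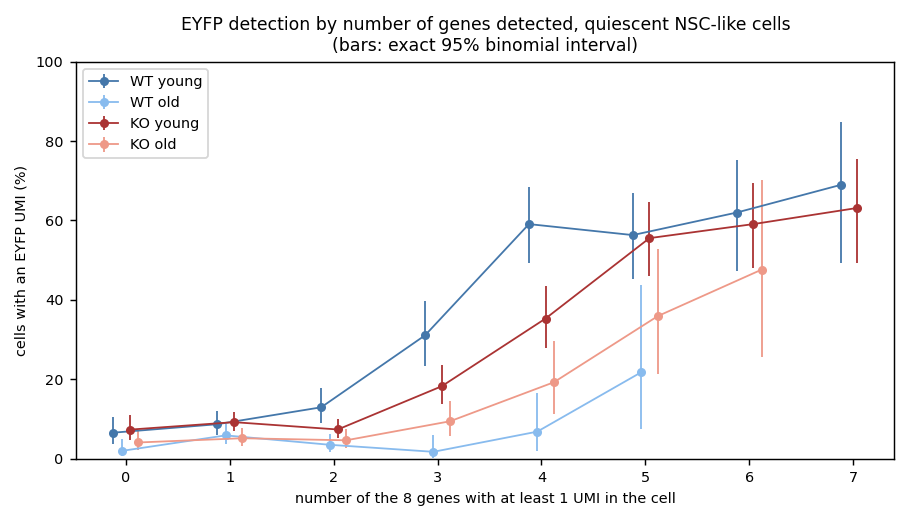
Share of quiescent NSC-like cells with an EYFP UMI (y axis, %) against the number of the 8 genes with a UMI in the cell (x axis), 1 line per library, with exact 95% binomial intervals. WT young and KO young pass 50% at 4 and 5 genes, and WT old is at 21.7% with 5 genes; numbers with under 20 cells are not drawn.

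Inside the cluster, EYFP+ and EYFP- cells differed less. Thbs4 was 388 CPM in 494 EYFP+ cells and 424 in the remaining cells, Ass1 383 and 384, and S100a6 1810 and 1687. Ecel1 (248 and 181) and Adamts18 (170 and 112) were higher in EYFP+ cells. All these values pool the 4 libraries, whose shares of EYFP+ cells differed, and the part of the library was not tested. EYFP itself was low in old mice within the cluster: 12.05% of WT old cells and 33.6% of KO old cells had an EYFP UMI, against 55.7% of WT young and 55.0% of KO young cells.

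The genes fell into unlike patterns among the cells of the cluster. Ecel1, Adamts18, C1ql3 and Pter were found together: cells with an Ecel1 UMI held Adamts18 2.40 times as often and C1ql3 1.85 times as often as cells without one, and cells with C1ql3 held Pter 2.17 times as often. The position of Pter and C1ql3 bears on the last value. Adamts18 and C1ql3 were the rarer in cells with Thbs4. Adamts18 was detected in 35.8% of cells with a Thbs4 UMI and 43.1% of cells without, and C1ql3 in 46.5% and 57.5%. C1ql3 was the rarer with Thbs4 in 3 of 4 libraries (41.6% against 56.2% in WT young, 42.9% against 48.1% in WT old, 47.4% against 62.2% in KO young, but 58.6% against 54.7% in KO old), and Adamts18 in 4 of 4. Ecel1 was the rarer with Thbs4 in 3 of 4 libraries and Pter in 2 of 4, with Pter in 48.2% of WT old cells with Thbs4 and 22.2% without. Cells with Thbs4 were the deeper ones in each library (5190 against 5014 UMIs in WT young). Anxa2 was close to unrelated to the other genes (ratios 1.03 to 1.16 when cells were split by Anxa2). Ratios for S100a6 rest on few cells without it, since 959 of 1013 cells held a UMI. These patterns are within cells of a cluster and carry no test.

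**Figure D3:**
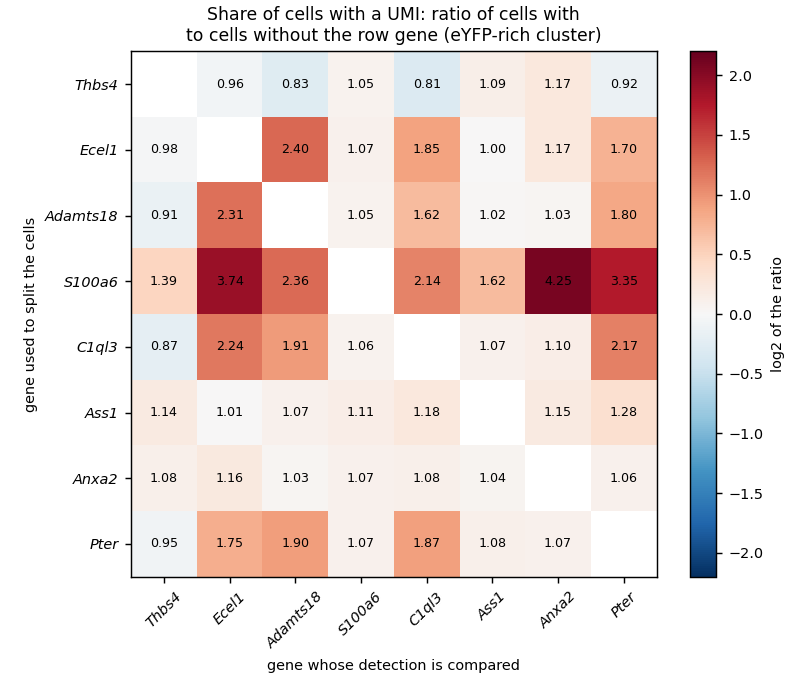
For the eYFP-rich cluster, the share of cells with a UMI of the column gene in cells with the row gene, divided by that in cells without it (numbers in boxes, colour on the log2 scale). Ecel1, Adamts18, C1ql3 and Pter have ratios of 1.62 to 2.40 with each other, and Thbs4 has 0.81 with C1ql3 and 0.83 with Adamts18.

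By tissue hashtag, each gene was higher in vSVZ than in RoB quiescent cells in all 8 mice (64 of 64 gene-mouse pairs). The genes lead a cluster in which 93.0% of hashtagged cells came from the vSVZ, so this order was close to set by their choice. It carries no test, and the share of all genes with this order was not computed. The tissues were also sorted through different gates, and the part of the gate was not tested. Ecel1 was 33.5 to 101 CPM in vSVZ and at most 9.34 in RoB. Thbs4 was 56.6 to 254 and 3.31 to 20.6. Ass1 differed least, 142 to 315 against 74.7 to 171. Cells of the cluster with a RoB hashtag numbered 16 in WT young mouse 2 and at most 8 in any other mouse. Those 16 cells held 85.7 CPM of Thbs4 and 12.2 of Ecel1, below the 418 and 159 of that mouse's vSVZ cells of the cluster, but 220 of Pter against 117 and 135 of Anxa2 against 134.

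The change with age was examined first over all vSVZ quiescent cells, summed per mouse. In WT mice all 8 genes were lower in old mice by edgeR's quasi-likelihood test; 14.5% of 10394 genes tested were called in either direction and 8.08% were lower. The median log2 change was -1.13 for the 8 genes and 0.01 for all genes. In KO mice 6 of 8 were lower (2.2% of genes tested were lower), with a median of -0.88, and C1ql3 and Pter did not pass. With the stricter hashtag call (posterior of 0.95 or more) 2 of the 6 calls in KO mice, Thbs4 and Anxa2, were left. At a clustering resolution of 0.5, where the class no longer held the eYFP-rich cells, 1 of 6 genes tested was called in WT and 0 in KO mice by edgeR. The share of vSVZ quiescent cells that belonged to the eYFP-rich cluster moved with these levels: it was 46.5% and 52.0% in young against 23.8% and 12.1% in old WT mice, and 37.0% and 37.7% in young against 16.9% and 16.5% in old KO mice. With the stricter hashtag call these shares were higher (37.2% and 16.9% in the WT old mice, for example), and the part of the share in the change of the class was not tested. Cells with a hashtag call, on which these values rest, were a smaller share of the young than of the old libraries.

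Anxa2 changed most. WT mice held 63.8 and 69.3 CPM when young against 21.0 and 11.7 when old, and KO mice 41.7 and 45.7 against 13 and 10.1. The ages did not overlap in either genotype, with log2 changes of -2.16 ± 0.25 (SE, edgeR adjusted p = 7.16e-07) in WT and -1.89 ± 0.24 (adjusted p = 2.67e-05) in KO mice. Here and below, 2 against 2 mice that do not overlap have a p of 0.333 in an exact permutation test. The share of all genes without overlap was not computed. Thbs4 was 242 and 254 CPM in young against 101 and 105 in old WT mice, and 196 and 163 against 56.6 and 85.9 in KO mice. Its log2 changes were -1.29 ± 0.15 in WT and -1.32 ± 0.15 in KO mice. Adamts18 was 63.8 and 58.1 in WT young against 21.9 and 19.7 in WT old mice, and 60.9 and 68.7 in KO young against 25.2 and 34.6 in KO old mice (log2 changes -1.57 ± 0.23 and -1.11 ± 0.18).

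C1ql3 showed the widest gap between the genotypes. It was 126 and 148 CPM in WT young and 80.4 and 46.0 in WT old mice (log2 change -1.25 ± 0.20, edgeR adjusted p = 7.67e-05), while KO young mice held 81.8 and 123 and KO old mice 92.7 and 80.2, which overlap (-0.23 ± 0.17, adjusted p = 0.547). The difference between the age changes, an interaction of 1.02 ± 0.26, did not pass (adjusted p = 0.0659), but it did under some of the other settings listed with the dependence on processing. Pter fell in WT mice (67.6 and 67.9 to 38.4 and 31.5) with a log2 change of -1.01 ± 0.21, a call lost without WT old mouse 2 (edgeR adjusted p = 0.0603), and in KO mice, with 42.8 and 63.2 against 39.0 and 38.4, the change of -0.45 ± 0.18 did not pass.

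Ass1, S100a6 and Ecel1 fell in both genotypes by 0.49 to 1.17 on the log2 scale, with standard errors of 0.11 to 0.20. S100a6 was 891 and 1047 CPM in young against 626 and 413 in old WT mice, and 750 and 871 against 601 and 539 in KO mice. Ass1 was 281 and 315 against 186 and 142 in WT, and 233 and 234 against 150.1 and 144 in KO mice. Ecel1 was 95.6 and 81.9 against 59.4 and 46.9 in WT, and 71.9 and 101 against 33.5 and 43.2 in KO mice. For all of them the ages did not overlap in either genotype, which on its own is no support with 2 mice per age. The call of Ecel1 in WT mice was lost on leaving out WT young mouse 1 (adjusted p = 0.0664), WT young mouse 2 (0.0554) or WT old mouse 2 (0.175), and that of S100a6 in KO mice on leaving out KO young mouse 2 (0.284) or KO old mouse 2 (0.140).

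**Figure D4:**
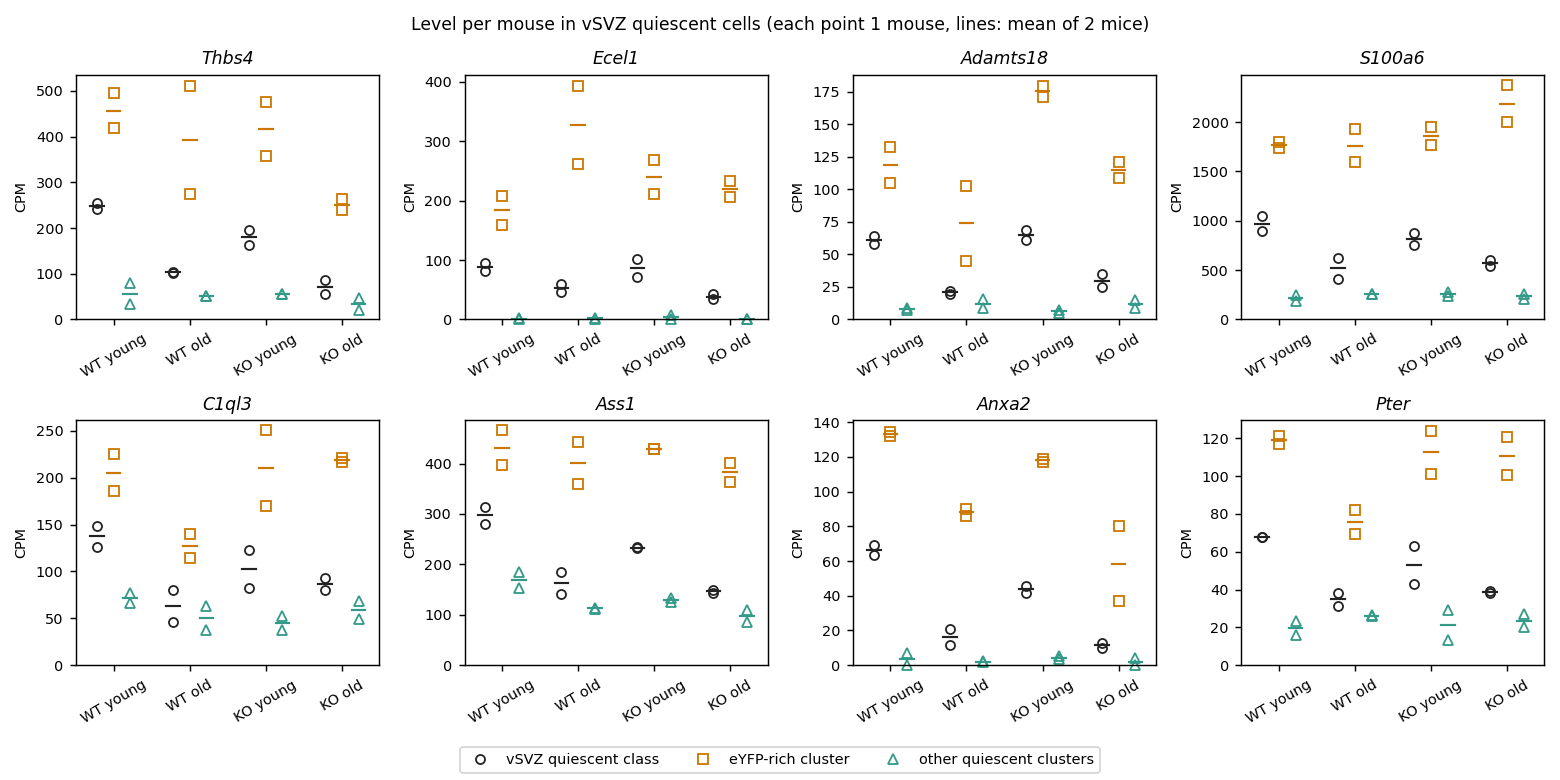
Level of each gene per mouse (y axis, CPM; points are mice and lines the mean of 2 mice) in the 4 conditions (x axis), for all vSVZ quiescent cells (circles), the eYFP-rich cluster (squares) and the other quiescent clusters (triangles). Circles fall with age for Thbs4 and Anxa2 in both genotypes, and squares of Ecel1 are highest in the WT old mice.

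Within the eYFP-rich cluster, summed over 34 to 133 vSVZ cells per mouse, the age change was smaller and 1 of 8 genes was called. Of 6244 genes tested there, 0.673% were higher with age in WT mice at this threshold. The gene was Ecel1, with 208 and 159 CPM in the WT young and 262 and 393 in the WT old mice, and it went the other way than in the whole class (log2 change 0.92 ± 0.21, adjusted p = 0.0285, edgeR). The share of cells with an Ecel1 UMI was 36.4% and 35.3% in the young and 42.9% and 44.1% in the old mice, with overlapping binomial intervals, and 3 cells carried 42.2% and 44.8% of the UMIs of the old mice. Without WT old mouse 2 the log2 change was 0.58 (adjusted p = 0.427) and without WT young mouse 2 it was 0.68 (0.342). In KO mice Ecel1 was 212 and 268 in young and 206 and 234 in old mice (-0.08 ± 0.19).

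The remaining genes in the cluster did not pass with age in WT mice. C1ql3 was 186 and 225 in WT young and 139 and 115 in WT old mice (-0.68 ± 0.24, edgeR adjusted p = 0.188), and Anxa2 132 and 134 against 86.1 and 90.0 (-0.55 ± 0.28, 0.394). For both the ages did not overlap, which on its own is no support with 2 mice per age. Adamts18 was 132 and 104 against 45.1 and 102 (-0.60 ± 0.30, 0.394), and in the old mice 6 cells of 35 and 6 of 34 held a UMI, with 3 cells carrying 72.7% and 88% of the UMIs. Thbs4 (495 and 418 against 275 and 511), Ass1 and S100a6 changed by -0.15 to 0.04 on the log2 scale with standard errors of 0.13 to 0.21. The change of Thbs4 turned with the mouse left out, being 0.22 without WT old mouse 1 and -0.69 without WT old mouse 2, in which 3 cells carried 56% of its UMIs. The median change of the 8 genes was -0.35, against 0.0048 for all genes.

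In KO mice 0 of 8 genes passed with age in the cluster by edgeR (0.464% of genes were called). An unadjusted p under 0.05 was reached by 4 of the 8, against 551 of all 6244 genes. Thbs4 was 476 and 358 CPM in young against 240 and 263 in old KO mice (-0.67 ± 0.20, adjusted p = 0.196), and Anxa2 117 and 119 against 80.0 and 36.8 (-0.96 ± 0.27, adjusted p = 0.151). Adamts18 was 171 and 179 against 108 and 121 (-0.56 ± 0.23, 0.426). For these 3 genes the KO ages did not overlap.

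In the other quiescent clusters 6 of the 8 genes passed the filter on low counts, and Ecel1 and Anxa2 did not. Ass1 was called lower with age in WT mice, with 184 and 153 CPM in young and 112 and 113 in old mice (-0.62 ± 0.16, edgeR adjusted p = 0.0209); 2.56% of 9369 genes were lower. Its call was lost on leaving out any WT mouse (adjusted p = 0.0856 to 0.163). In KO mice Ass1 was 133 and 126 against 109 and 86.3 (-0.42 ± 0.14, 0.138), and 0 of the 6 genes were called by edgeR (1.59% of genes called). There 2 of the 6 had an unadjusted p under 0.05, against 1125 of all 9369 genes. S100a6, at 191 to 273 CPM in all 8 mice, moved by at most 0.14 on the log2 scale with age.

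**Figure D5:**
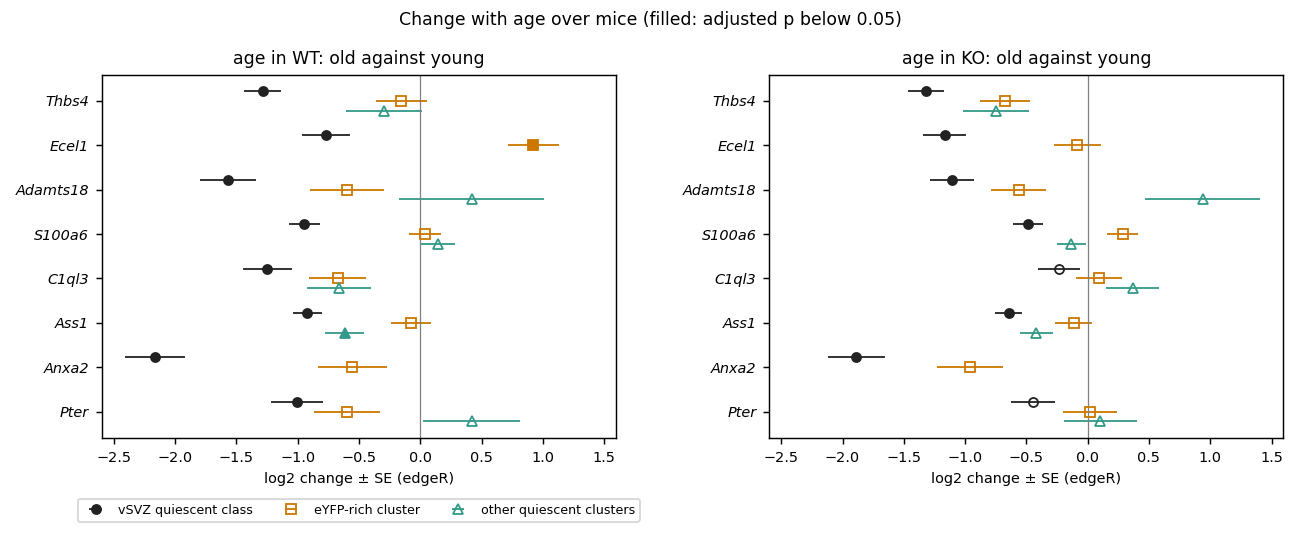
Log2 change with age (x axis, old against young, ± SE from edgeR) of the 8 genes (y axis) in WT (left) and KO (right) mice, for the whole vSVZ quiescent class, the eYFP-rich cluster and the other quiescent clusters; filled symbols passed an adjusted p of 0.05. All circles lie below 0, Ecel1 is at 0.92 in the eYFP-rich cluster of WT mice, and Ecel1 and Anxa2 were not tested in the other clusters.

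Loss of the interferon receptors was examined at each age. In the whole class 0 of 8 genes were called by edgeR in young mice (2.43% of genes called) and 0 of 8 in old mice (0.183% of genes called). An unadjusted p under 0.05 was reached by 5 of the 8 in young mice, against 1630 of all 10394 genes. For old mice these numbers were 3 and 823. In young mice the closest was Thbs4, at 196 and 163 CPM in KO and 242 and 254 in WT mice (-0.47 ± 0.14, adjusted p = 0.0634), followed by Ass1 (233 and 234 against 281 and 315, adjusted p = 0.0901) and Anxa2 (adjusted p = 0.098). For Thbs4 the genotypes did not overlap at either age, since old mice held 56.6 and 85.9 in KO and 101 and 105 in WT. Neither age passed by edgeR (adjusted p = 0.370 in old mice). The interaction of age and genotype called 0 of 8 genes (0.789% of genes called). Its unadjusted p was under 0.05 for 2 of the 8, against 1351 of all 10394 genes.

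Within the eYFP-rich cluster edgeR called 0 of 8 genes for the genotype in young (0.352% of genes called) and in old mice (0.0641%). The interaction called 0 of 8 as well (0.0641%), and DESeq2 called 0 of 8 in all 3 comparisons. Unadjusted p-values under 0.05 were held by 2, 5 and 2 of the 8 in this order, against 536, 475 and 501 of all 6244 genes. Log2 changes ran from -0.17 to 0.61 in young and from -0.64 to 0.79 in old mice. The highest was C1ql3 in old mice, with 217 and 221 CPM in KO and 139 and 115 in WT mice (0.79 ± 0.24, adjusted p = 0.452). In the other quiescent clusters the genotype called 0 of 6 genes in young (0.651% called) and old mice (0.171% called), and the interaction 0 of 6 (0.31% called). Here 2, 1 and 1 of the 6 had an unadjusted p under 0.05, against 1100, 664 and 976 of all 9369 genes. Age of WT and KO old mice, tamoxifen age and, in young mice, the tracing time differed along with genotype, and their parts cannot be told apart.

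Of 98 further genes of the families and pathways of the 8, 47 were tested in the whole class. With age in WT mice 8 rose and 7 fell (14.5% of all genes tested were called), and in KO mice 2 rose and 6 fell (4.1% of all genes). S100a11, a partner of annexins, fell in both genotypes (log2 changes -1.95 ± 0.41 and -1.47 ± 0.36), S100a4 (-0.61 ± 0.17) and S100a16 (-0.45 ± 0.09) fell in WT, and S100a10, the S100 partner of Anxa2, fell in KO mice (-0.66 ± 0.18). Among annexins, Anxa5 fell in both (-0.43 ± 0.12 and -0.49 ± 0.11) and Anxa6 in WT mice (-0.72 ± 0.21). S100b rose in both (0.83 ± 0.15 and 0.46 ± 0.12), and Adgrb3 (1.13 ± 0.31), Ece1 (0.58 ± 0.18), Adamts9 (1.78 ± 0.53) and the arginine transporter Slc7a2 (0.54 ± 0.15) rose in WT mice. The thrombospondin-binding receptor Lrp1 rose in WT (0.65 ± 0.14) and Cd47 in KO mice (0.32 ± 0.09). Calr (-0.37 ± 0.10) and Odc1 (-0.60 ± 0.18) fell and Aqp4 (0.47 ± 0.10) and Slc1a3 (0.46 ± 0.08) rose in WT mice, and C1ql1 (-1.74 ± 0.50), Gfap (-0.69 ± 0.20) and Nr2e1 (-0.39 ± 0.11) fell in KO mice. Thbs3 (0.44 ± 0.40 in WT) and Asl (-0.13 ± 0.30) did not pass.

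Within the eYFP-rich cluster 32 of these genes were tested and 1 was called with age in each genotype (0.913% of all genes in WT and 0.464% in KO mice). Gfap, an intermediate filament of astrocytes and stem cells, rose in WT mice (1.46 ± 0.34, edgeR adjusted p = 0.0334), and Egfr, a receptor of activating stem cells, rose in KO mice (1.2 ± 0.27, adjusted p = 0.0358). In the other quiescent clusters 39 were tested: Calr (-0.49 ± 0.12) and S100a16 (-0.35 ± 0.10) fell with age in WT mice and Vcam1 (-0.36 ± 0.10) in KO mice (4.02% and 1.59% of all genes were called). By genotype and by the interaction 0 of the further genes were called by edgeR in any of the 3 sets of cells. At an unadjusted p under 0.05 these comparisons held 5 to 11 of the 47 genes tested in the class, against 823 to 1630 of all 10394 genes. The eYFP-rich cluster held 1 to 6 of 32, against 475 to 536 of 6244. The other clusters held 5 to 6 of 39, against 664 to 1100 of 9369.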

How the data were processed

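Droplet libraries (10x, 3′ ends) of 4 conditions were analysed, each a pool of 2 mice. The deposited matrices hold UMI counts per gene and barcode; per the labels and the submitters' processing notes the authors used kallisto and bustools on GRCm38 and Scanpy 1.6.0, and the count layer, annotation and use of strand are not given in the sources used here. Library totals were 27096070 to 78028524 UMIs. From the deposited counts, cells with 1000 to 20000 UMIs, 100 to 6000 genes and under 10% mitochondrial UMIs were kept, predicted doublets (27 to 177 per library) were removed, and cells were clustered with scanpy 1.11.5 and leidenalg 0.10.2 at resolution 1. Deposited hashtag counts were assigned to mouse and tissue by the highest posterior of a multinomial mixture. It called 1255 of 5820 WT young, 1447 of 2396 WT old, 1322 of 6461 KO young and 1794 of 3378 KO old cells. The share called was thus lower in young than in old libraries. All values by mouse or tissue rest on called cells only, and the part of the missing calls was not tested. Reading hashtag numbers 1 and 2 as the mice of a pool is an interpretation of the labels. The title of the WT young hashtag sample adds “and others” without saying what these are, which bears on every value by mouse and tissue in WT young. One further sample had no group in the labels and was not analysed here.

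Levels are CPM, the summed UMIs of a gene per 1000000 UMIs of the cells summed, with exact 95% Poisson intervals, and shares have exact (Clopper-Pearson) binomial intervals; both cover counting error only. Thinned values used 1000 UMIs per cell. vSVZ counts summed per mouse were tested with edgeR 4.0.16 (quasi-likelihood, TMM, filterByExpr, all 4 conditions in 1 fit, R 4.3.3) and adjusted by Benjamini-Hochberg over all genes of the fit at 0.05; 2 mice against 2 could not go below 0.333 in an exact permutation test. On simulated data with 200 genes changed by 1 on the log2 scale, the age comparison in WT recovered 53.5% in the class, 37% in the eYFP-rich cluster and 37.5% in the other clusters. Alternatives were RLE scaling, DESeq2 1.42.0, no filter on low counts, stricter hashtag calls, resolutions of 0.5 and 2, the 8 genes kept in clustering, doublets kept, each mouse left out and, added after seeing the data, the hashtag number as a replicate block.

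The 8 genes and all gene lists were chosen with earlier results of these data known. All 8 are named in each result; of 98 family genes those called and the direct relatives are named, and the 10 genes most like the 8 were taken by Pearson r of log2(CPM + 5).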

Additional observations from a re-analysis of the deposited data

How the results depend on the processing

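Hashtag numbers 1 and 2 recur in each condition, but mice of the same number share only that number: over genes, their deviations from the condition means correlated at -0.0279 to 0.0604. With the number as a replicate block, chosen after seeing the data, the counts of genes called were the same in each comparison (8 for age in the WT class and 6 in the KO class). With the hashtag posterior at 0.95 or more, the 6 genes called lower with age in the KO class became 2, the gene called in the eYFP-rich cluster with age in WT mice became 0, the gene called in the other clusters became 2, and the interaction called 1 gene in the class and 1 in the other clusters. At a resolution of 0.5 the class called 1 gene with age in WT and 0 in KO mice. There the cells of the eYFP-rich cluster were no longer named quiescent by the markers. The class held 78 and 123 cells of the WT young mice, against 142 and 256 at resolution 1. The quiescent label of these cells thus depends on the resolution. Log2 changes with age turned to 0.51 for Adamts18, 0.12 for S100a6 and 0.45 for Pter in WT and 0.93 for Adamts18 in KO mice, none of them past the threshold. The cluster sets could not be given at that resolution. Without the filter on low counts, 1 gene in place of 0 was called for the genotype in young mice, the genotype in old mice and the interaction in the class, and for age in KO mice in the eYFP-rich cluster and in the other clusters. With the 8 genes kept in clustering the interaction called 1 gene in the class.

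Leaving out 1 mouse at a time gave 6 to 8 genes for age in the WT class and 5 to 6 in the KO class, 0 to 1 for the genotype at either age and 0 to 2 for the interaction. It gave 0 to 1 in the eYFP-rich cluster for age in WT, age in KO and genotype in old mice, and 0 to 1 in the other clusters for the same comparisons. The interaction of C1ql3 in the class passed in edgeR without WT old mouse 1 (1.37, adjusted p = 0.00495) or KO young mouse 2 (1.35, adjusted p = 0.0156) and was 0.58 (adjusted p = 0.429) without WT old mouse 2. Thbs4 passed for the genotype in young mice without KO old mouse 1 (adjusted p = 0.0179) or mouse 2 (0.0220), and Anxa2 for age in KO mice in the eYFP-rich cluster without KO old mouse 1 (0.0290). S100a6 lost its call with age in the KO class on leaving out the second KO mouse of either age (0.284 for young, 0.140 for old) and with DESeq2 (0.635), and Pter in the WT class without WT old mouse 2 (0.0603). Causes were not tested. RLE scaling, resolution 2 and kept doublets moved none of the counts of calls by over 1.5 times; DESeq2 counts are given only where no adjusted p was missing. With a pseudocount of 1, 5 of the 10 genes most like the 8 were shared. Cells were fewest in the eYFP-rich cluster of the WT old mice, with 34 and 35.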
